A study of Mus musculus with 12 samples.

Results

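CD26+ papillary fibroblasts of the neonatal mouse dermis were set against Dlk1-Sca1+ cells, a pre-adipocyte population of the same tissue. The comparison used every array titled CD26+ or Dlk1-Sca1+, 6 of the 12 arrays of the series, and 22180 genes. The cells came from the dorsal dermis of 2-day-old mice (P2) and were profiled after flow sorting on Affymetrix Mouse Gene 2.0 ST arrays, which carry probes along the whole transcript. The study describes Pdgfra reporter mice, whose fibroblasts carry a fluorescent nuclear mark, and gates on the reporter that gave CD26+Sca1- papillary cells, Dlk1-Sca1+ and Dlk1+Sca1+ pre-adipocytes and Dlk1+Sca1- reticular cells. By contrast the labels give the genotype of every array as wild-type and name the papillary cells CD26+ alone. Each population had 3 arrays labelled as biological replicates, and the study speaks of different mice, so p-values measure the spread between these arrays. No animal was treated, and all groups shared age, tissue and genotype label.

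Replicate 3 of Dlk1-Sca1+ was kept out of the test. The study excluded, without giving its number, 1 sample of this population that grouped with Dlk1+Sca1+ samples and had more Dlk1 than the rest. It put this down, as most likely, to a technical failure of the sort. Replicate 3 had the highest Dlk1 of its group. Where a gene's arrays are given one by one its value stands beside them, as that of an array the test did not use. CD26+ therefore had 3 arrays and Dlk1-Sca1+ had 2, and the spread was estimated over 11 arrays of all 4 populations.

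Papillary fibroblasts lie next to the epidermis and answer its Wnt signals, and they include the precursors of the hair follicle's dermal papilla. Pre-adipocytes lie deeper and give rise to dermal fat. Their differentiation is driven by Pparg, a nuclear receptor, and brings on genes for fatty acid uptake, for the coat of lipid droplets and for hormones such as adiponectin.

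The sort markers were read as a check and not as a finding. Dpp4, which encodes CD26, had log2 values of 10.39, 10.00 and 10.51 in CD26+ and 9.97 and 10.13 in Dlk1-Sca1+ replicates 1 and 2. The populations overlapped for the gene that names one of them, with a difference of 0.25 (95% interval -0.38 to 0.88, adjusted p = 0.998), and replicate 3 of Dlk1-Sca1+ was lower at 9.37. Dlk1 was 8.49, 8.69 and 8.51 in CD26+ and 8.09 and 8.32 in Dlk1-Sca1+, with 8.69 in replicate 3. Pdgfra was between 9.12 and 9.46 in CD26+ and at 9.39 and 9.50 in Dlk1-Sca1+, with 8.79 in replicate 3. Ly6a, which encodes Sca1, is not analysed here. The fibroblast genes Col1a1, Col1a2, Dcn and Lum ranked 20, 2, 27 and 31 by mean level of the 22180 genes.

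Most genes that set CD26+ apart from Dlk1-Sca1+ were lower in CD26+, among them genes of fat cells (Car3, Plin1, Adipoq), of fascia progenitors (Gfpt2, Pi16) and chemokines (Cxcl12, Ccl7). Limma called 19 of 22180 genes (0.0857%) at an adjusted p of 0.05, 17 lower (0.0766%) and 2 higher (0.00902%) in CD26+. Before adjustment 1224 genes had a p under 0.05 (5.52%), 600 higher (2.71%) and 624 lower (2.81%), so the directions were near balance there. Every CD26+ array lay on the same side of both Dlk1-Sca1+ arrays in all 19 called genes, as it did in 22.6% of all genes. The median difference over all genes was 0.01. In bulk RNA from sorted cells, fewer cells of a type and less RNA per cell cannot be told apart.

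**Figure D1:**
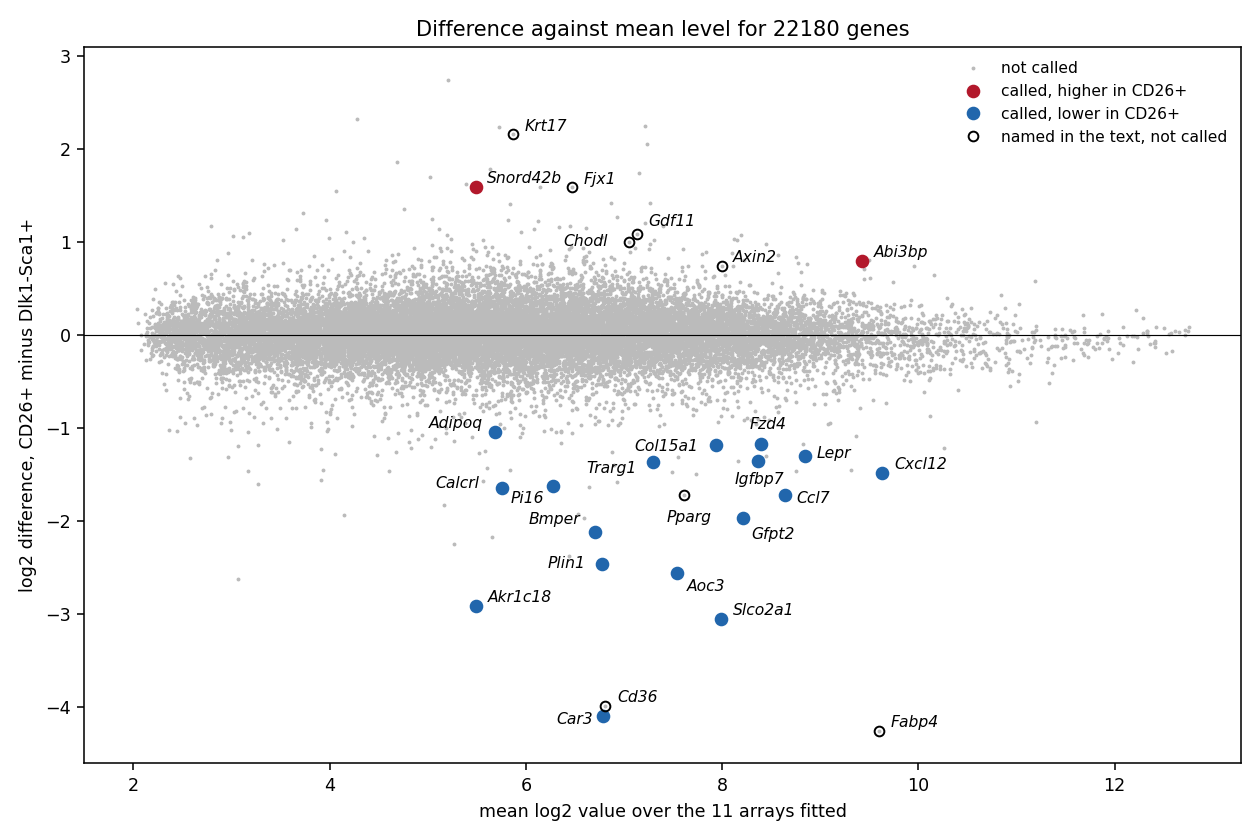
Each point is 1 of 22180 genes, with the mean log2 value over the 11 fitted arrays on the x axis and the log2 difference, CD26+ minus Dlk1-Sca1+, on the y axis. Filled points are the 19 called genes, and open circles are some genes of the text that missed the threshold, among them Fabp4 at -4.26 and Cd36 at -3.99.

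Akr1c18, Bmper and Cxcl12 carried the firmest differences, since they were called with each of the 11 arrays left out in turn. Akr1c18 (chromosome 13, 4132615 to 4150646, here and below on GRCm38.p6) encodes an enzyme that inactivates progesterone. It was at 3.46, 3.82 and 3.98 in CD26+, against 6.77 and 6.57 in Dlk1-Sca1+. The CD26+ arrays lay far below both, and replicate 3 was higher still at 7.83. The log2 difference was -2.92 ± 0.25 (SE, adjusted p = 0.000584).

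Bmper (chromosome 9, 23223076 to 23485215) encodes a secreted protein that binds bone morphogenetic proteins and tunes their signalling. Its values were 5.33, 5.21 and 5.40 in CD26+ and 7.58 and 7.29 in Dlk1-Sca1+, with 7.80 in replicate 3. The groups were well apart, and the difference was -2.12 ± 0.22 (adjusted p = 0.00253). Cxcl12 (chromosome 6, 117168535 to 117181368) encodes a chemokine that draws cells bearing the receptor Cxcr4. It was an abundant transcript in both populations, at 8.63, 8.29 and 8.61 in CD26+ and 10.03 and 9.96 in Dlk1-Sca1+, with 10.81 in replicate 3. The difference was -1.49 ± 0.16 (adjusted p = 0.00253).

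The 250 bases before the start site of these genes are shown, because they carried the firmest differences, together with those of Adipoq, the adipocyte hormone gene described below. They are RefSeq sequences on GRCm38.p6, written 5′ to 3′ on the strand of the gene. Akr1c18 is on the minus strand at chr13:4150647-4150896, and the others are on the plus strand, Bmper at chr9:23222826-23223075, Cxcl12 at chr6:117168285-117168534 and Adipoq at chr16:23146286-23146535. Capitals mark a match, on either strand, to 1 of 5 motifs searched, and the one in Cxcl12 is CTTTGATC of the TCF/LEF type on the opposite strand.
Akr1c18: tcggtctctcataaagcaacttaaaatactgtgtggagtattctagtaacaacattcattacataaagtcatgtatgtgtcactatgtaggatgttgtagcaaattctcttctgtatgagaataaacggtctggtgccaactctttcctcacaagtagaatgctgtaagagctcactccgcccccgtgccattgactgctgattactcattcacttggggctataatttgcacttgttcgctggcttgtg
Bmper: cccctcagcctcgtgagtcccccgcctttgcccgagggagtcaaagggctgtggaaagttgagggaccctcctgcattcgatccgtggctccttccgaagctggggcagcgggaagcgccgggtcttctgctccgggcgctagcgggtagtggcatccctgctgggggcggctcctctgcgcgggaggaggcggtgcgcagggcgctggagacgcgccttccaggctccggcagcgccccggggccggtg
Cxcl12: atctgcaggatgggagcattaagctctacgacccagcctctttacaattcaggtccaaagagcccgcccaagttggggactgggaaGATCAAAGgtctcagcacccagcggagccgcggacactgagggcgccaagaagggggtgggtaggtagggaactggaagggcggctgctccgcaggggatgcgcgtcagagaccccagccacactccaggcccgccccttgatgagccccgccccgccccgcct
Adipoq: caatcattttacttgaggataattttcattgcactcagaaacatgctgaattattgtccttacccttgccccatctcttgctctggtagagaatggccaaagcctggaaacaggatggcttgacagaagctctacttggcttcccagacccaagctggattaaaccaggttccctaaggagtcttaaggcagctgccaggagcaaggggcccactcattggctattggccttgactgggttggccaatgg

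Windows of this length were matched for 13 of the 17 genes lower in CD26+, 14 windows in all as Lepr has 2. AGGTCA, a nuclear receptor half-site, was in none of them and in 14.02% of 32851 windows of all genes. TTGCNNAA of the C/EBP type was in those of Gfpt2 and Plin1 (9.56% of all windows) and TATAAA in that of Slco2a1 (12.37%). GGNNTTTCC of the NF-kappaB type was in 1 window of Lepr (4.93% of all windows), and CTTTGATC was in that of Cxcl12 (0.801%). Both strands were searched and no match overlapped another in the sequences printed. A match describes the letters only.

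A few fat cell genes were called, all of them lower in CD26+. Plin1 (chromosome 7, 79721164 to 79732904) encodes the perilipin that coats lipid droplets and marks the adipocyte lineage. It was at 5.02, 5.77 and 6.12 in CD26+, against 8.26 and 7.95 in Dlk1-Sca1+, and at 9.25 in replicate 3. No array of one population reached the other, and the difference was -2.47 ± 0.31 (adjusted p = 0.00974).

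Car3 (chromosome 3, 14863538 to 14872381), a carbonic anhydrase abundant in fat and muscle, had the largest difference of any called gene. Its values were 4.39, 4.27 and 3.90 in CD26+ and 8.23 and 8.34 in Dlk1-Sca1+, with 9.79 in replicate 3. The difference was -4.10 ± 0.58 (adjusted p = 0.0344), a ratio of 17.2 on the scale of the array signal. A second probe set of Car3 gave -2.94, in the same direction.

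Adipoq (chromosome 16, 23146536 to 23157968) encodes adiponectin, a hormone made by adipocytes. Its values were low throughout, at 5.28, 5.08 and 5.16 in CD26+ and 6.24 and 6.20 in Dlk1-Sca1+. Replicate 3 stood apart at 7.86. The difference was -1.05 ± 0.17 (adjusted p = 0.0357).

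Among 27 measured adipocyte and lipid storage genes, Plin1, Car3 and Adipoq were called lower, none was called higher and 24 were not called. The median difference of the list was -0.11, against 0.01 over all genes, and 8 members had a positive difference. An unadjusted p under 0.05 was found for 9 members, all of them lower in CD26+, against 2.81% of all genes. This list and those below were chosen with earlier results of these data known, so such counts are no test of a list. Gpd1, the enzyme that makes the glycerol backbone of stored fat, had -0.77 (adjusted p = 0.63), Cidec, which enlarges lipid droplets, -1.15 (0.362), and Lpl, which frees fatty acids from lipoproteins, -1.22 (0.63). Plin1 lost its call without Dlk1-Sca1+ replicate 1 (adjusted p = 0.108). Car3 was called in 3 and Adipoq in 1 of the 11 fits with an array left out, and both were weakest without Dlk1-Sca1+ replicate 1 (adjusted p = 0.213 and 0.242).

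The fatty acid carriers had differences of like size that missed the threshold, with wide spread within CD26+. Fabp4, the fatty acid binding protein of adipocytes, was at 5.79, 8.63 and 7.33 in CD26+ and 11.56 and 11.45 in Dlk1-Sca1+. The CD26+ arrays ranged widely but stayed below both others, and replicate 3 was at 12.22. The difference of -4.26 ± 0.89, the most negative of all genes tested, missed the threshold (adjusted p = 0.362).

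Cd36, a fatty acid transporter, was at 4.57, 6.23 and 3.66 in CD26+, against 8.78 and 8.85 in Dlk1-Sca1+ and 10.18 in replicate 3. Its difference was -3.99 ± 0.65 (adjusted p = 0.0864), and without CD26+ replicate 2, its highest array there, it was -4.70 (adjusted p = 0.00593). Pparg itself was at 6.92, 6.17 and 7.21 in CD26+ and 8.20 and 8.77 in Dlk1-Sca1+, with 9.05 in replicate 3. The arrays did not overlap, and the difference of -1.72 ± 0.30 missed the threshold (adjusted p = 0.0737).

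With all 12 arrays Cd36 and Pparg were called (adjusted p = 0.0193 and 0.0163) and Fabp4 was not (0.0662). Of 25 preadipocyte regulators none was called, and the median difference was -0.09. Cebpa, a transcription factor that works with Pparg, had -0.64 (adjusted p = 0.867).

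Lepr, Aoc3, Trarg1, Slco2a1 and Calcrl were also lower in CD26+ and belonged to none of the lists read. Lepr (chromosome 4, 101717137 to 101815352), the leptin receptor, was at 7.68, 7.72 and 7.96 in CD26+ and 9.24 and 8.95 in Dlk1-Sca1+, with 9.99 in replicate 3. The difference was -1.31 ± 0.16 (adjusted p = 0.00826), and it was lost only without Dlk1-Sca1+ replicate 1 among the arrays left out (adjusted p = 0.0904). Aoc3, an amine oxidase of adipocytes and vessel walls, was at 6.40, 6.31 and 4.83 in CD26+ and 8.52 and 8.30 in Dlk1-Sca1+, with 9.84 in replicate 3, a difference of -2.56 ± 0.38 (adjusted p = 0.0326). Its lowest CD26+ value was CD26+ replicate 3, and the gap to Dlk1-Sca1+ was wide in every array.

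Trarg1, which takes part in the trafficking of the insulin-responsive glucose transporter, was at 6.39, 6.84 and 7.13 in CD26+ and 8.22 and 8.08 in Dlk1-Sca1+, with 8.77 in replicate 3, a difference of -1.36 ± 0.21 (adjusted p = 0.0326). Slco2a1, a prostaglandin transporter, was at 6.44, 6.65 and 5.78 in CD26+ and 9.50 and 9.19 in Dlk1-Sca1+, with 10.60 in replicate 3, a difference of -3.05 ± 0.45 (adjusted p = 0.0357). Calcrl, a receptor for adrenomedullin and calcitonin gene-related peptide, was at 4.38, 4.80 and 4.71 in CD26+ and 6.41 and 6.14 in Dlk1-Sca1+, with 7.94 in replicate 3, a difference of -1.65 ± 0.27 (adjusted p = 0.0486). In these 3 genes no array of CD26+ reached either Dlk1-Sca1+ array. Aoc3, Trarg1, Slco2a1 and Calcrl were called in 4, 3, 2 and 2 of the 11 fits with an array left out, and each was weakest without Dlk1-Sca1+ replicate 1 (adjusted p = 0.242, 0.242, 0.242 and 0.363).

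Endothelial cells also express Calcrl and Slco2a1, so their markers were read beside these genes. None of 20 endothelial markers was called, their median difference was 0.02, and the mean level of the list was 5.10 to 5.23 in CD26+ and 5.19 to 5.22 in Dlk1-Sca1+, with 5.29 in replicate 3. Tek, an angiopoietin receptor, was at 4.21, 4.88 and 4.76 in CD26+ and 6.03 and 6.07 in Dlk1-Sca1+, with 7.40 in replicate 3 and a difference of -1.43 (adjusted p = 0.128). Cdh5 and Esam went the other way, at 0.68 (adjusted p = 0.978) and 0.44 (0.894). Of the 20 differences 9 were negative.

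**Figure D2:**
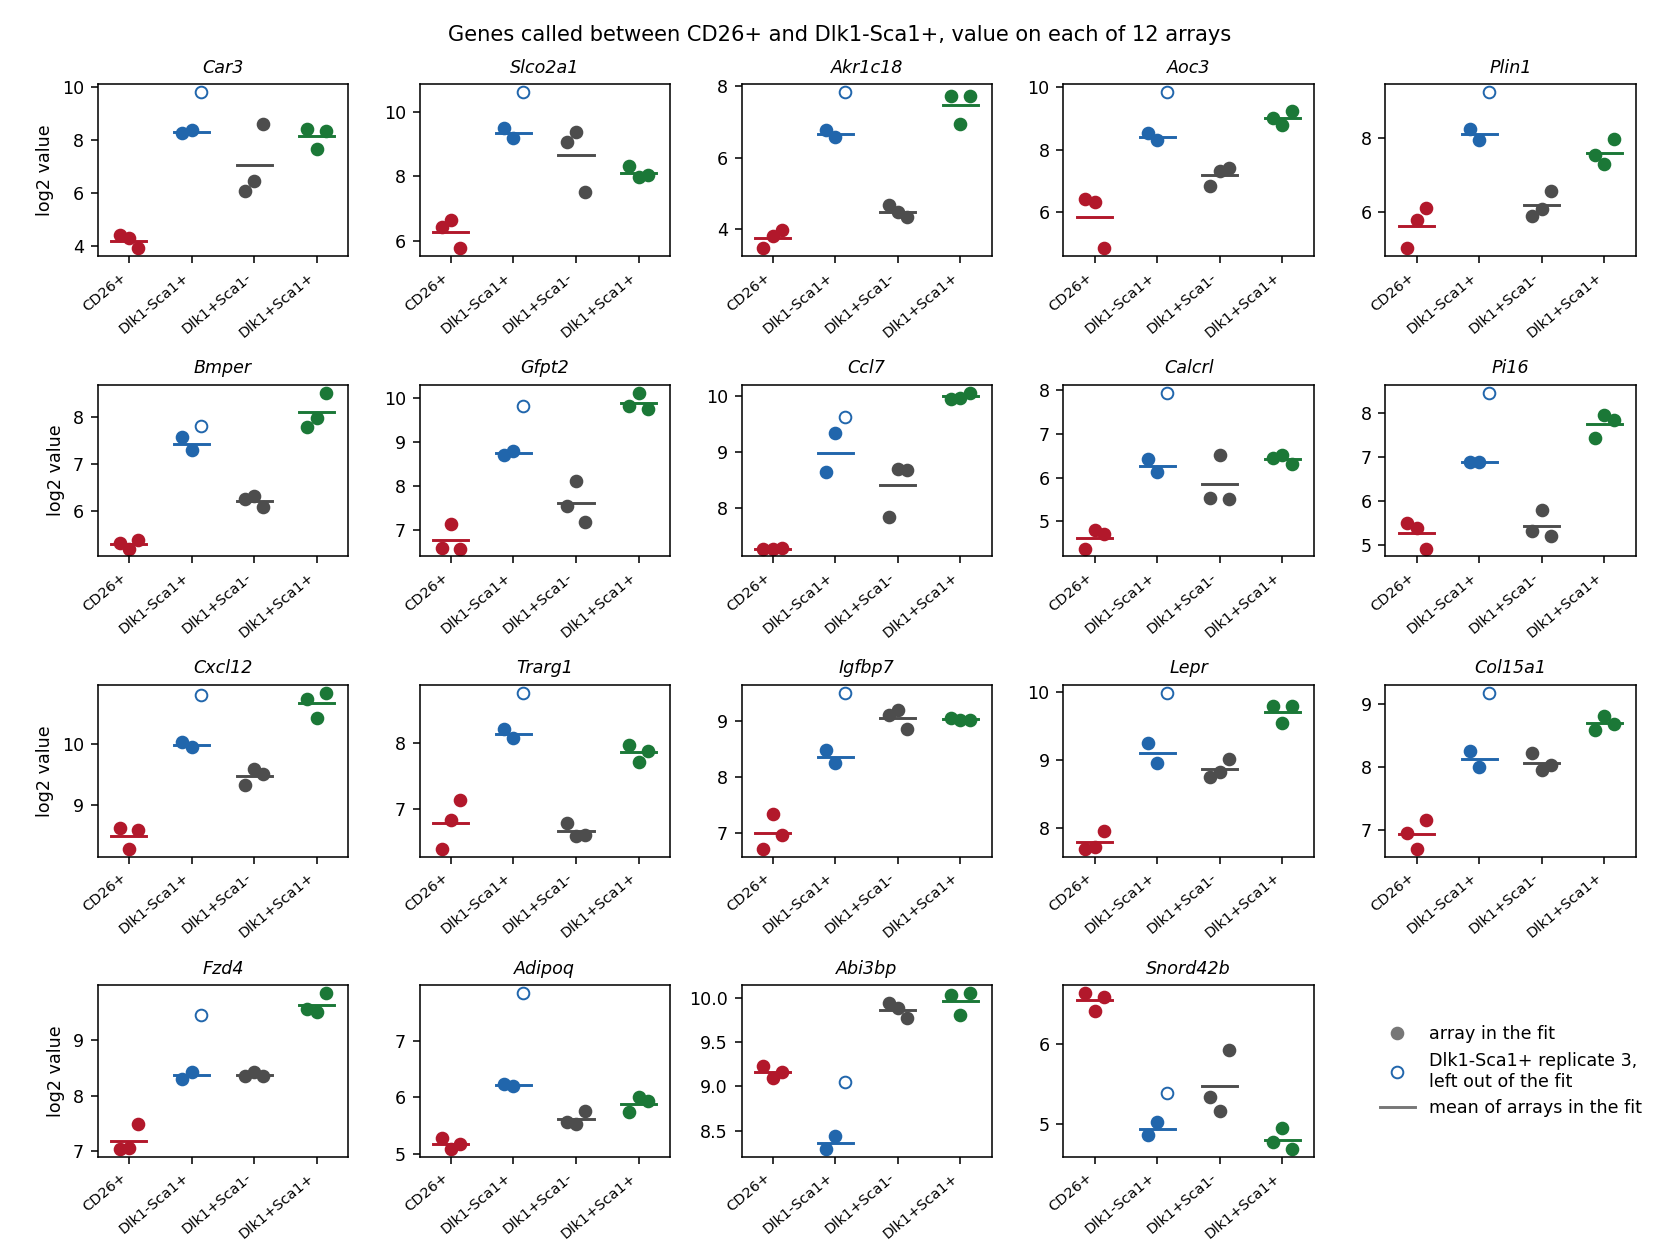
Each panel is 1 called gene, with the log2 value of every array on the y axis and the populations on the x axis in the order CD26+, Dlk1-Sca1+, Dlk1+Sca1- and Dlk1+Sca1+. Filled points are fitted arrays, lines are their means and the open point is Dlk1-Sca1+ replicate 3, which lay above replicates 1 and 2 in all 17 genes lower in CD26+.

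Progenitor genes of fascia and adventitia were next. Pi16, a secreted protein that marks fibroblasts around vessels, was at 5.50, 5.38 and 4.92 in CD26+ and 6.89 and 6.88 in Dlk1-Sca1+, with 8.45 in replicate 3. The difference was -1.62 ± 0.24 (adjusted p = 0.0264). Gfpt2, an enzyme of hexosamine synthesis, was at 6.60, 7.16 and 6.59 in CD26+ and 8.71 and 8.79 in Dlk1-Sca1+, with 9.81 in replicate 3, a difference of -1.97 ± 0.25 (adjusted p = 0.00974). The populations did not overlap for either gene.

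These were the 2 called among 22 measured genes of the list, whose median difference was -0.16, and 17 of the 22 differences were negative, against 10645 of the 22180 over all genes. Before adjustment 7 members were lower and 1 was higher in CD26+, against 2.81% and 2.71% of all genes. The lipid-binding gene Anxa3 had -1.27 (adjusted p = 0.508) and Limch1, a regulator of non-muscle myosin, 0.70 (0.508). Pi16 was called in 6 and Gfpt2 in 8 of the 11 fits with an array left out, with the highest adjusted p, 0.205 and 0.0904, without Dlk1-Sca1+ replicate 1.

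Of 33 chemokines and cytokines, Cxcl12 and Ccl7 were called, both lower in CD26+. Ccl7 (chromosome 11, 82045712 to 82047525), which attracts monocytes, was at 7.27 in all 3 CD26+ arrays and at 8.64 and 9.34 in Dlk1-Sca1+, with 9.64 in replicate 3. The difference was -1.72 ± 0.25 (adjusted p = 0.0255). It was called in 5 of the 11 fits with an array left out and was weakest without Dlk1-Sca1+ replicate 2 (adjusted p = 0.161), the array with its higher value.

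The inflammatory cytokine Il6 was at 5.55, 6.21 and 6.32 in CD26+ and 7.26 and 7.75 in Dlk1-Sca1+, with 8.29 in replicate 3 and a difference of -1.47 ± 0.29 (adjusted p = 0.121). The neutrophil attractants Cxcl1 and Cxcl2 had -1.30 (adjusted p = 0.867) and -0.96 (0.599), and the monocyte attractant Ccl2 had -0.87 (0.815). None of these 4 was called. With all 12 arrays Il6 was (adjusted p = 0.0291). The median difference of the list was 0.02 and 16 of 33 differences were negative.

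Signalling and matrix genes added single calls. Fzd4, a receptor for Wnt ligands and norrin, was at 7.04, 7.05 and 7.48 in CD26+ and 8.31 and 8.43 in Dlk1-Sca1+, with 9.47 in replicate 3, a difference of -1.18 ± 0.17 (adjusted p = 0.0255). It was the only call among 48 Wnt ligands, receptors and secreted modulators (median 0.05). Igfbp7, a secreted protein related to the insulin-like growth factor binding proteins, was at 6.72, 7.34 and 6.96 in CD26+ and 8.48 and 8.24 in Dlk1-Sca1+, with 9.50 in replicate 3, a difference of -1.35 ± 0.19 (adjusted p = 0.0179). It was the only call among 17 Igf axis genes (median 0.09).

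Col15a1, a collagen of the basement membrane zone, was at 6.94, 6.70 and 7.16 in CD26+ and 8.25 and 7.99 in Dlk1-Sca1+, with 9.17 in replicate 3, a difference of -1.19 ± 0.18 (adjusted p = 0.028). It was the only call among 43 collagen chains, whose median difference was 0.09. Bmper was the only call among 28 bone morphogenetic protein and activin ligands and antagonists (median 0.10), and Chrdl1, another antagonist of these ligands, had -1.93 ± 0.49 (adjusted p = 0.493). Igfbp7 was called in 7, Fzd4 in 5 and Col15a1 in 4 of the 11 fits with an array left out, and the highest adjusted p was 0.205 and 0.242 for Igfbp7 and Col15a1 without Dlk1-Sca1+ replicate 1 and 0.144 for Fzd4 without replicate 2.

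**Figure D3:**
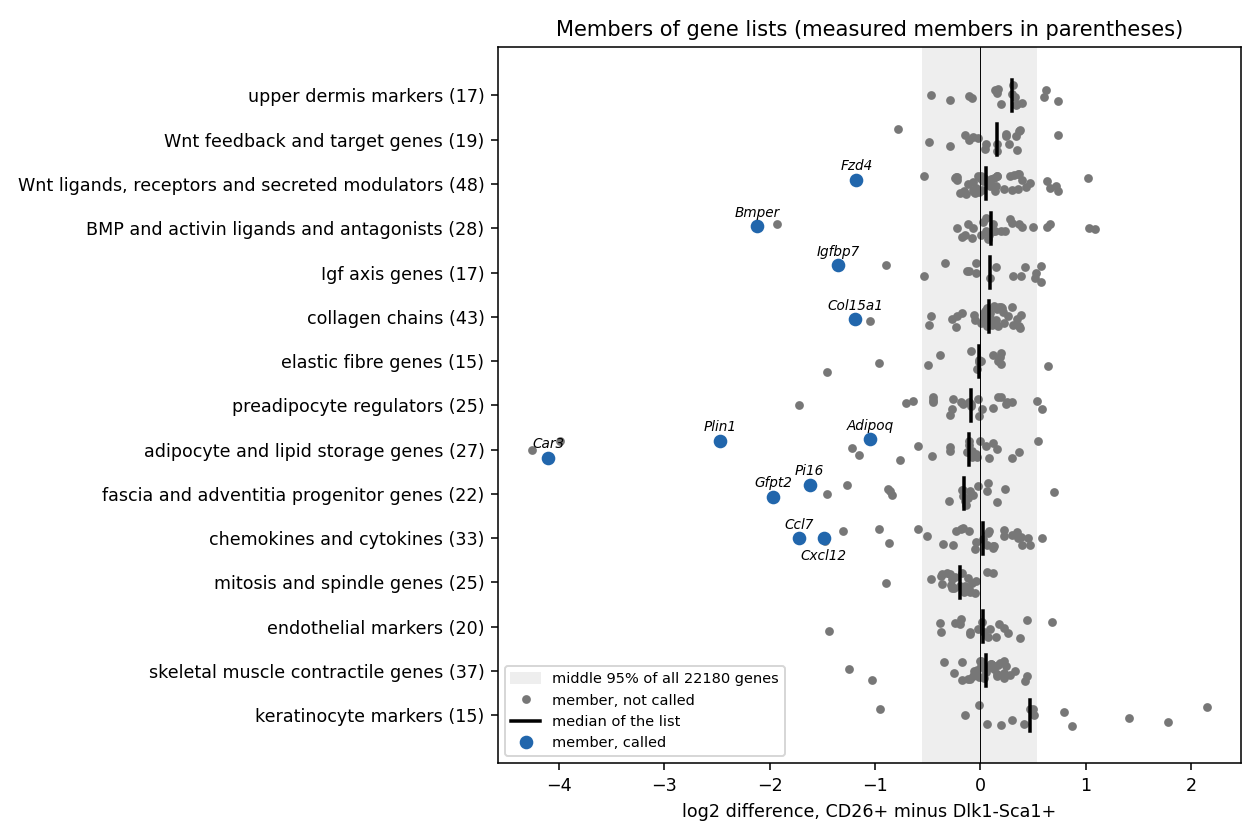
Each point is a measured member of a gene list, with its log2 difference, CD26+ minus Dlk1-Sca1+, on the x axis and the lists down the page. Black bars are list medians, large named points are the called members, and the grey band holds the middle 95% of all genes. The called members lie below -1, while the medians of the drawn lists that hold one lie between -0.16 and 0.10.

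On the CD26+ side few genes passed. Abi3bp (chromosome 16, 56477801 to 56690135), an extracellular matrix protein, was at 9.23, 9.09 and 9.16 in CD26+, against 8.29 and 8.44 in Dlk1-Sca1+. The difference was 0.80 ± 0.13 (adjusted p = 0.0486), but replicate 3 of Dlk1-Sca1+, at 9.05, lay just under the lowest CD26+ array. The call was lost with all 12 arrays (0.57, adjusted p = 0.384) and in 10 of the 11 fits with an array left out, with the highest adjusted p, 0.377, without Dlk1-Sca1+ replicate 1.

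The other gene called higher was Snord42b (chromosome 11, 78183059 to 78183113), a small nucleolar RNA, a class that guides chemical changes of ribosomal RNA. It was at 6.62, 6.40 and 6.58 in CD26+ and 4.86 and 5.03 in Dlk1-Sca1+, with 5.39 in replicate 3, a difference of 1.58 ± 0.22 (adjusted p = 0.017). It lies inside the gene of the ribosomal protein Rpl23a, and whole-transcript probes may read both. The probe sets paired with Rpl23a gave the same values, 11.63 in CD26+ and 11.67 in Dlk1-Sca1+. Whether they read this locus was not tested. Snord42b was called in 7 of the 11 fits with an array left out and was weakest without Dlk1-Sca1+ replicate 1 (adjusted p = 0.162). The rule for named genes passes over such RNAs, and it is named because only 2 genes were higher.

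The genes with the smallest p among those higher in CD26+ that missed the threshold were led by Fjx1 and Gdf11. Fjx1, a secreted kinase-like protein of planar polarity, was at 6.45, 7.06 and 7.04 in CD26+ and 5.49 and 5.05 in Dlk1-Sca1+, with 5.43 in replicate 3 and a difference of 1.58 ± 0.28 (adjusted p = 0.0846). Gdf11, a ligand of the TGF-beta family, was at 7.51, 7.71 and 7.57 in CD26+ and 6.43 and 6.59 in Dlk1-Sca1+, a difference of 1.09 ± 0.20 (adjusted p = 0.0853). The groups did not overlap for either gene, but replicate 3 of Dlk1-Sca1+ was at 7.55 for Gdf11, within the CD26+ range. The cadherin Fat3 had 1.05 (adjusted p = 0.147), and Myocd, a coactivator of smooth muscle genes, had 0.86 (0.232). The semaphorin Sema6d had 0.74 (0.416) and the matrix protein gene Tgfbi 0.61 (0.391). Pcp4l1, Lxn, Adgrl3, Rasl2-9, P4htm and Srsx had differences of 0.73 to 1.31 (adjusted p = 0.239 to 0.438).

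None of the upper dermis markers or of the Wnt feedback and target genes was called in this comparison. The study reported Lef1, Tcf4, Axin2 and CD39, encoded by Entpd1, as higher in CD26+Sca1- cells by quantitative PCR. By the same method it reported Cxcl1 and Cxcl12 as lower in papillary cells and Cd36 as higher in both Sca1+ populations. From its arrays it gave Pparg and Fabp4 as higher in both Sca1+ populations. Its methods list an assay for Chodl. The arrays were part of the same study, so the direction of these genes is not independent evidence. Of 15 study-named genes measured, Akr1c18 and Cxcl12 were called, both lower, and the median difference was -1.30. Chodl, a membrane lectin, was at 8.86, 8.66 and 8.65 in CD26+ and 7.77 and 7.68 in Dlk1-Sca1+, with 6.71 in replicate 3 and a difference of 0.99 ± 0.20 (adjusted p = 0.147). Axin2, a feedback inhibitor that Wnt signalling induces, was at 8.69, 9.28 and 8.55 in CD26+ and 7.98 and 8.21 in Dlk1-Sca1+, with 7.24 in replicate 3 and a difference of 0.74 ± 0.22 (adjusted p = 0.63). For both genes all CD26+ arrays were above the others.

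Lef1, a transcription factor of the Wnt pathway, was at 8.29, 8.35 and 7.81 in CD26+ and 7.88 and 7.69 in Dlk1-Sca1+, which overlapped, and at 6.12 in replicate 3. Its difference was 0.37 (95% interval -0.29 to 1.02). The transcription factor gene Tcf4 differed by 0.18 (-0.15 to 0.52) and Entpd1, the ectonucleotidase CD39, by 0.33 (-0.18 to 0.83). The study's methods name no primers for Tcf4, so whether its assay read the gene of this symbol is not known. Among 17 upper dermis markers the median difference was 0.30 with 4 negative, and among 19 Wnt feedback and target genes it was 0.16 with 7 negative, against 0.01 over all genes. No member was called in 34 of the 42 lists read, whose medians ran from -0.19 for mitosis and spindle genes to 0.47 for keratinocyte markers.

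The 2 pre-adipocyte populations were then contrasted for the same genes, Dlk1-Sca1+ minus Dlk1+Sca1+, to see where CD26+ against Dlk1-Sca1+ differs from CD26+ against Dlk1+Sca1+. That contrast called 263 genes (1.19%), and 3 of the 19 genes above were among them. Fzd4 was lower in Dlk1-Sca1+ by a difference of -1.28 (adjusted p = 0.00278), with 8.37 in Dlk1-Sca1+ and 9.64 in Dlk1+Sca1+. Gfpt2 had -1.14 (adjusted p = 0.0463) and Abi3bp -1.60 (adjusted p = 0.0001). Of the fat cell genes, Plin1 had 0.49 (95% interval -0.18 to 1.17), Car3 0.16 (-1.13 to 1.44) and Adipoq 0.33 (-0.03 to 0.69).

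Some of the study-named genes differed between the pre-adipocyte populations. Chodl was higher in Dlk1-Sca1+ by 2.08 (adjusted p = 0.000279), Entpd1 by 2.36 (adjusted p = 0.000299) and Tcf4 by 1.09 (adjusted p = 0.00402). Axin2, at 0.82 (adjusted p = 0.112), and Lef1, at 1.14 (adjusted p = 0.112), were not called, nor was the upper dermis marker Pdpn, at -0.70 (adjusted p = 0.31). Entpd1 averaged 8.44 in CD26+, 8.12 in Dlk1-Sca1+ and 5.76 in Dlk1+Sca1+. Replicate 3 of Dlk1-Sca1+ was lower, at 6.45, and with it CD26+ minus Dlk1-Sca1+ was 0.88 (adjusted p = 0.666) in place of 0.33. For Tcf4 replicate 3 was at 9.60. Akap12, a scaffold protein of kinase signalling, and Il6 went the other way in that contrast, with differences of -1.49 (adjusted p = 0.0209) and -1.47 (adjusted p = 0.027). In CD26+ minus Dlk1-Sca1+ Akap12 had -1.47 (adjusted p = 0.0864). Dlk1, a gate of the sort, is not counted here.

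CD26+ was also set against the mean of both Dlk1+ populations, which shares the CD26+ arrays with the main comparison and called 619 genes (2.79%). Of the 19 genes above 18 were also called there, and 16 of the 17 genes lower in CD26+ were called lower there as well. Abi3bp was lower in CD26+ there, at -0.75 (adjusted p = 0.00139), and higher in CD26+ minus Dlk1-Sca1+, at 0.80. Mean Abi3bp was 9.16 in CD26+, 9.86 in Dlk1+Sca1-, 9.96 in Dlk1+Sca1+ and 8.37 in Dlk1-Sca1+, the lowest of the 4 populations. Trarg1 had -0.47 (adjusted p = 0.176) against the Dlk1+ populations and -1.36 against Dlk1-Sca1+. Akr1c18 had -2.22 (adjusted p = 4.23e-05) and -2.92 in these comparisons.

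Replicate 3 of Dlk1-Sca1+, which the test did not use, was read against the 19 called genes. Each gene was centred on its mean over the 12 arrays. Replicate 3 then correlated on average at 0.0607 with Dlk1+Sca1+ arrays, -0.0689 with replicates 1 and 2 and -0.24 with CD26+ arrays. Replicates 1 and 2 correlated at only 0.0481 with each other, and on average at 0.0166 and 0.102 with CD26+ arrays. Of the 17 genes lower in CD26+, 12 had a higher mean in Dlk1+Sca1+ than in Dlk1-Sca1+. Replicate 3 was thus no independent check of the calls. It lay beyond all CD26+ arrays on the side of replicates 1 and 2 in 19 of 19, a relation that 38.1% of all genes had. In the 17 genes lower in CD26+ it was above replicates 1 and 2 every time, by 0.36 to 1.67 over their mean with a median of 1.14, against a median of 0.02 over all genes. In Abi3bp it was instead nearer to CD26+. Among 25 preadipocyte regulators it was the highest of the 6 arrays in 16, and among 27 adipocyte genes in 17, against 20.9% of all genes. For 25 mitosis and spindle genes it was the highest in 0, with a list level of 7.77 to 7.99 in CD26+, 8.06 to 8.13 in Dlk1-Sca1+ replicates 1 and 2 and 7.24 in replicate 3.

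Markers of other cells were read for the whole comparison. Of 15 keratinocyte markers none was called, but the median difference was 0.47 and the list level was 5.20 to 6.22 in CD26+ and 5.21 to 5.38 in Dlk1-Sca1+. Krt17, a keratin of hair follicles, was at 5.86, 8.10 and 8.05 in CD26+ and 4.83 and 5.53 in Dlk1-Sca1+, with 4.39 in replicate 3 (adjusted p = 0.635). It was high in CD26+ replicates 2 and 3 only, and it was called without replicate 1 (adjusted p = 0.029). Krt10 went the other way, at 5.89, 6.81 and 5.74 in CD26+ and 6.66 and 7.53 in Dlk1-Sca1+, with 6.64 in replicate 3. Its difference was -0.95 (adjusted p = 0.765), and 3 of the 15 differences of the list were negative. The part of keratinocyte RNA in the genes higher in CD26+ was not tested.

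Of 37 skeletal muscle contractile genes none was called (median 0.05). Casq2, the calcium store protein of muscle, was at 4.83, 5.07 and 4.61 in CD26+ and 6.84 and 5.34 in Dlk1-Sca1+, and the myosin gene Myh1 at 3.67, 3.06 and 3.41 in CD26+ and 5.09 and 3.74 in Dlk1-Sca1+. Both were highest in Dlk1-Sca1+ replicate 1. Replicate 3 had 5.39 for Casq2 and 4.14 for Myh1. Des, of the same list, went the other way at 0.45 (adjusted p = 0.934), and 13 of the 37 differences were negative. The list level was 5 to 5.06 in CD26+ and 4.98 to 5.05 in Dlk1-Sca1+ replicates 1 and 2. Car3 is also a muscle gene, and the part of muscle RNA in its difference was not tested.

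How far the 19 calls rested on single arrays is shown by leaving out each of the 11 in turn. The number called was 8, 11 and 11 without CD26+ replicates 1, 2 and 3, and 12 and 17 without Dlk1-Sca1+ replicates 1 and 2. It was 13, 17 and 25 without the Dlk1+Sca1- replicates and 9, 9 and 12 without the Dlk1+Sca1+ replicates, which enter only the estimate of the spread. Without Dlk1-Sca1+ replicate 1, 4 of the 19 were still called, namely Akr1c18, Bmper, Cxcl12 and Ccl7. All 19 kept their direction in every one of these fits.

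**Figure D4:**
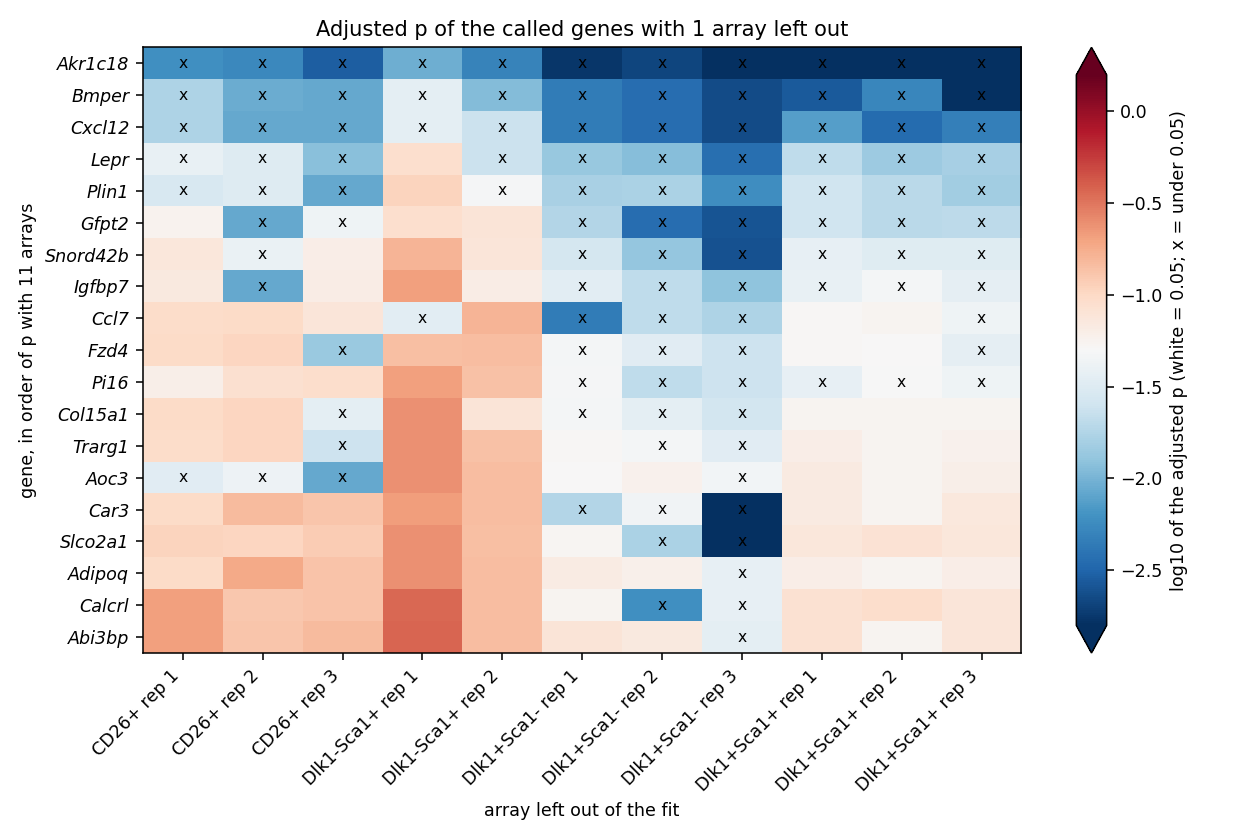
Rows are the 19 called genes in order of p and columns are the arrays left out, CD26+ and Dlk1-Sca1+ first. Colour is the log10 of the adjusted p, with white at 0.05, and a cross marks a gene still called, as Akr1c18, Bmper and Cxcl12 were in all 11 columns.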

How the data were processed

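The deposited file holds a log2 level for each probe set and array. The sources used here do not state how the authors summarised and normalised these values. The submitters' processing notes name mm10. The log2 values ran from 1.41 to 14.05 with array medians of 5.38 to 5.51, so none was rescaled. Background compresses the differences of dim genes, no detection call was given, and the number of arrays limits precision.

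A single gene symbol was paired with 23521 of 41345 probe sets, several with 1820 and none with 16004. The probe set with the highest mean was used for the 1082 genes with more than 1, leaving 22180 genes, and positions were matched by Entrez identifier for 21994. Ly6a and Fbn1 are not analysed here.

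Limma 3.58.1 in R 4.3.3 (statmod 1.5.0) fitted 1 mean per population to 11 arrays (7 residual degrees of freedom), with eBayes trend and robust fitting, two-sided. P-values were adjusted by Benjamini-Hochberg over all genes and called at 0.05. The script was tested on simulated data. Named genes were the 14 most changed called genes per direction with no overlap of arrays, filled by the smallest p where fewer were called and passing over predicted genes and small RNAs, with the gate and study-named genes and the called or leading members of 42 gene lists. Members and lists were chosen with earlier results of these data known. Alternatives were all 12 arrays, the 5 or 6 arrays of the 2 groups, plain eBayes, quantile normalisation, median centring, leaving out the 40% dimmest genes, mean of probe sets, a replicate block, array weights and each array left out.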

Additional observations from a re-analysis of the deposited data

How the results depend on the processing

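The 19 calls depended on which arrays shaped the spread, and their directions did not. With all 12 arrays 29 genes were called, 16 of them among the 19, and with only the 6 arrays of the 2 groups 6 were called, 5 of them among the 19. With an array left out the count ran from 8 to 25. It was 15 with the 5 arrays of the 2 groups, 18 without trend and robust fitting, 17 after quantile normalisation, 18 after median centring, 26 without the 40% dimmest genes, 19 with the mean of probe sets and 24 with array weights. The sample titles tie arrays across populations by replicate number alone. Same-numbered arrays correlated at -0.04 to 0.15 after removal of the group means, which cannot show whether they came from the same mice. With the replicate number as a block 23 genes were called, 15 of them among the 19, and Abi3bp, Adipoq, Aoc3 and Calcrl were lost. Akr1c18 and Bmper passed in all 10 of these other settings, and Cxcl12 in 9, missing with the 6 arrays of the 2 groups. Directions turned only for genes near 0 that were never called. Pdgfra was 0.0910 with replicate 3 included, in both such fits, and Rpl23a was 0.0157 after quantile normalisation. Dcn was 0.0181 with replicate 3 included in both fits and 0.00861 after quantile normalisation, and with an array left out it ran from -0.0565 (without CD26+ replicate 3) to 0.0531 (without CD26+ replicate 2). The causes were not tested. With 3 against 2 arrays, a difference as large as that of Fabp4 could miss the threshold, so a gene that was not called is not shown to be alike in both populations.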
